A study of Mus musculus with 2 samples.

Results

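Collagen chains were examined in cells from healing mouse skin. The family was defined by name as every gene whose symbol reads Col, a number, a, a number, which gave 44 genes of the 19938 genes with a probe set of their own. All 44 collagen genes of this form in the RefSeq annotation were measured, by 46 probe sets. The cells came from the skin scar of mice labelled as TCF reporter animals, 1 week after the wound was made, and were labelled B-Gal positive or B-Gal negative. The reporter is read here as using beta-galactosidase to mark cells with active TCF proteins, which act with beta-catenin in the nucleus to switch on Wnt target genes. Both groups share that genotype and time, and each is a single Affymetrix Mouse Gene ST array of total RNA. With 1 array per group there is no spread between replicates and no test, so every difference below compares 2 arrays and this number limits the precision. No source used here gives the reporter construct, the number of mice or the way cells were separated, and the design text describes homogenised wound tissue. The array annotation used here names no lacZ probe set, so neither label could be set against the reporter.

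Collagens are extracellular proteins in which alpha chains, built of short repeats that each begin with glycine, wind into a triple helix. Fibrillar collagens form the tensile cables of the dermis, type IV forms the sheet of basement membranes, type VI forms beaded filaments around cells, and fibril-associated chains sit on the surface of the cables. Transmembrane collagens anchor cells to the matrix. In skin wounds, fibroblasts lay down most of the fibrillar collagen of the scar, while endothelial cells, mural cells and keratinocytes contribute basement membrane chains.

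Values are deposited log2 expression values, 1 per array, and differences are B-Gal positive minus B-Gal negative. A gene was counted as expressed when at least 1 array exceeded 5.59, the 95th percentile of 1194 olfactory and vomeronasal receptor genes. By this rule 41 of the 44 collagens were expressed, 39 of them above the floor in both arrays. Col28a1 passed through B-Gal negative cells alone and Col4a6 through B-Gal positive cells alone. Of these 41, 23 were at least 2-fold lower in B-Gal positive cells, against 12.7% of all 13784 expressed genes. None (0) was at least 2-fold higher, against 9.92% of expressed genes. At least 8-fold lower values were found for 9 of the 41 collagens, against 2.51% of expressed genes. The median difference was -1.61 over the expressed collagens and 0.06 over all expressed genes. In bulk RNA, fewer cells of a type and less RNA per cell cannot be told apart. Fibroblast markers moved in the same direction: all 6 were at least 2-fold lower, with a median value of 7.76 in B-Gal positive and 12.06 in B-Gal negative cells. Lum and Dcn are in this list and in the synthesis list below. All 3 mast cell markers were lower by that much too (6.11 in B-Gal positive and 8.93 in B-Gal negative cells), while the expressed Schwann cell (Sox10, 0.11) and adipocyte (Plin1, 0.77) markers were not. The 6 macrophage markers went the other way. All were at least 2-fold higher, with a median value of 12.27 in B-Gal positive and 7.17 in B-Gal negative cells. The part of cell composition in the collagen differences was not tested.

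**Figure D1:**
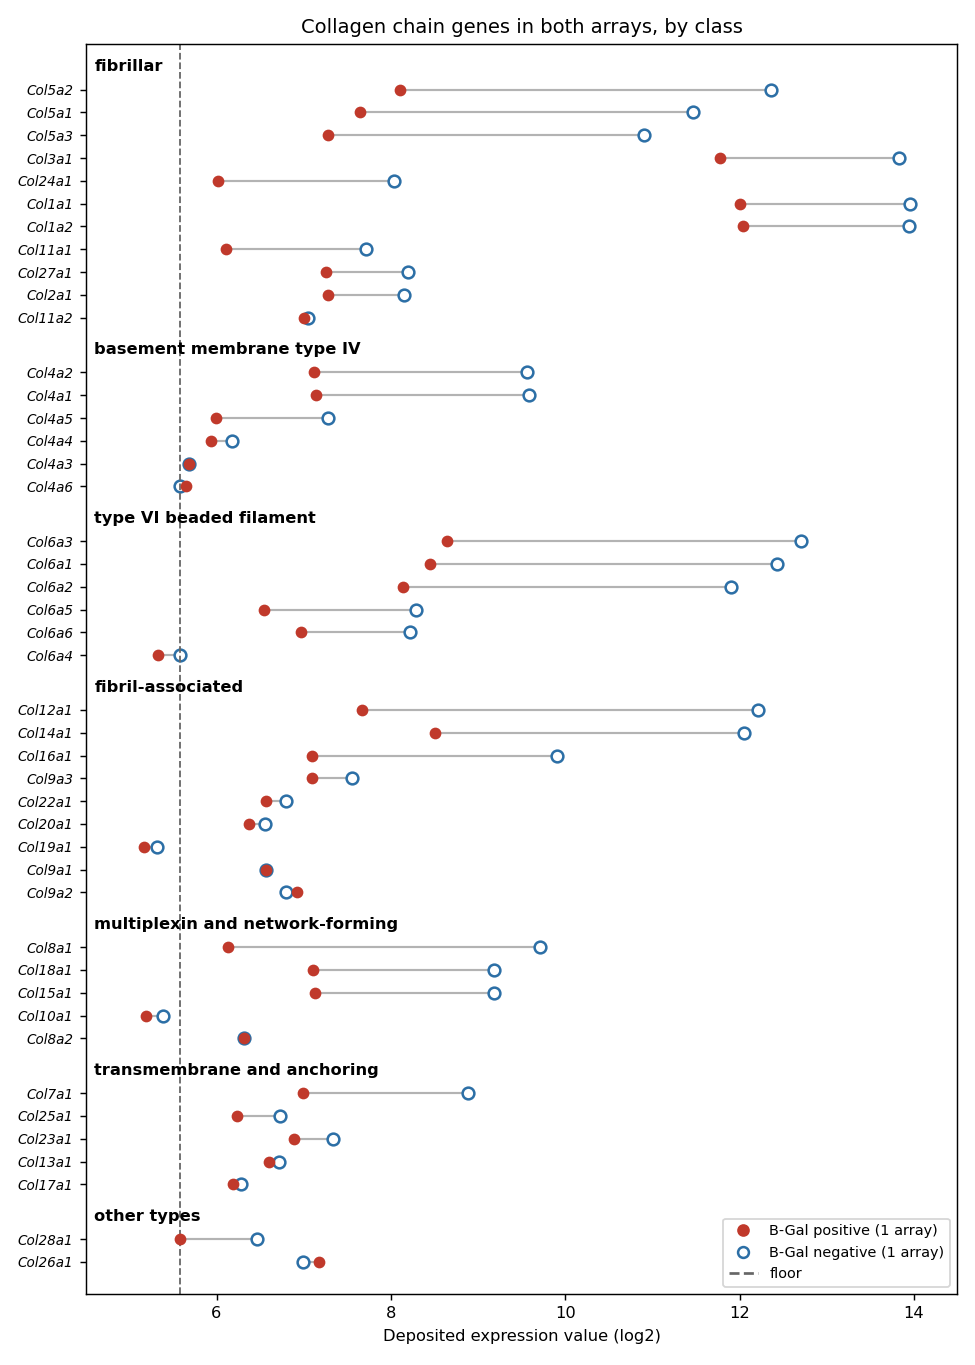
Deposited log2 values of all 44 collagen genes, in rows by class, with filled points for the B-Gal positive array and open points for the B-Gal negative array. The dashed line is the floor at 5.59. Fibrillar chains Col1a1, Col1a2 and Col3a1 lie at 11.78 to 12.04 in B-Gal positive cells, and many transmembrane and cartilage chains have both points close together.

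The promoters of 5 chains are shown because they stand for the contrasts below: Col1a2, a chain of the main dermal collagen, the Col4a1 and Col4a2 pair, whose differences were nearly equal, and Col8a1 and Col8a2, chains of one type whose differences were not. Sequences are from RefSeq on GRCm38.p6 and run 5′ to 3′ on the gene's own strand, with the annotated gene start at base 251 of 300. Capitals mark the CCAAT box (CCAAT), the GC box (GGGCGG) and their reverse complements. The TATA box (TATAAA) and a TCF core (CTTTGA) were also searched on both strands and have no match in these 5 windows. The windows are chr6:4505368-4505667 on the plus strand for Col1a2, chr8:11312777-11313076 on the minus strand for Col4a1 and chr8:11312555-11312854 on the plus strand for Col4a2. Those of type VIII are chr16:57754688-57754987 on the minus strand for Col8a1 and chr4:126286544-126286843 on the plus strand for Col8a2.
Col1a2: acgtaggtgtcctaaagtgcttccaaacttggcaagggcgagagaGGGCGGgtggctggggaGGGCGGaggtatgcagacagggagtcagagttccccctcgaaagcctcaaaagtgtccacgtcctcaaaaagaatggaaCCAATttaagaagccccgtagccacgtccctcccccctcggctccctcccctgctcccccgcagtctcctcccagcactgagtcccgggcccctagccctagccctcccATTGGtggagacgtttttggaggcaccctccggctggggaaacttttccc
Col4a1: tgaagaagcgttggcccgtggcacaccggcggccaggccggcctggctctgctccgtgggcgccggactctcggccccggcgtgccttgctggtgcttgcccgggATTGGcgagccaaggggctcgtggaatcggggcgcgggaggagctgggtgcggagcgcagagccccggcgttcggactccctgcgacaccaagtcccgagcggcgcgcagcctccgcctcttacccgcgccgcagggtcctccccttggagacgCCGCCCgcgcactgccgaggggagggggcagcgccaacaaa
Col4a2: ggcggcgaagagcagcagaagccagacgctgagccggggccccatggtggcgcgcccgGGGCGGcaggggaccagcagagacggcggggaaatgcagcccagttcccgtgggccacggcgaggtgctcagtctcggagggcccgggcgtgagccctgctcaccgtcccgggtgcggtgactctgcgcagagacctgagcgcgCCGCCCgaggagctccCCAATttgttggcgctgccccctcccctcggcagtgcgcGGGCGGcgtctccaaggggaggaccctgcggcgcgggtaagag
Col8a1: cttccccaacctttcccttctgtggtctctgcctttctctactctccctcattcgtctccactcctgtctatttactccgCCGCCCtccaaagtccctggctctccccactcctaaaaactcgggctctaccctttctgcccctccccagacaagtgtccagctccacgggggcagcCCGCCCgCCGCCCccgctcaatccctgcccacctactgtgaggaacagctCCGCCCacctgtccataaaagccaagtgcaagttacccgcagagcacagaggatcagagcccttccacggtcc
Col8a2: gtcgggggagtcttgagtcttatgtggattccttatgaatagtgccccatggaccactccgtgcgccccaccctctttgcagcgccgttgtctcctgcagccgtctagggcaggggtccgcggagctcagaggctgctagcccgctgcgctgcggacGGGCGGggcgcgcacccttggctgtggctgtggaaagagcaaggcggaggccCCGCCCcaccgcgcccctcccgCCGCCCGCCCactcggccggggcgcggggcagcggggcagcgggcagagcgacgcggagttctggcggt

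The Col4a1 and Col4a2 windows lie head to head and share 78 bases, and the GC box at bases 260 to 265 of the Col4a1 window is the site at bases 258 to 263 of the Col4a2 window. Col8a1 and Col8a2 each hold 4 GC box matches, of which the last 2 in Col8a2 overlap each other. Promoter windows were at hand for 35 of the 44 collagens. A GC box was present for 22 of the 35 (62.9%), against 38.2% of all 27025 genes with a window. A CCAAT box was present for 13 of the 35 (37.1%, against 41.1% of all genes) and a TATA box for 5 (14.3%, against 15.7%). The TCF core was present for 9 of the 35 collagens (25.7%), against 18.2% of all genes. These are letter matches, not shown binding sites.

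Fibrillar collagens were lower in B-Gal positive cells by any amount for all 11 expressed genes, against 6275 of all 13784 expressed genes. Of the 11, 8 were lower by at least 2-fold, against 12.7% of all expressed genes, and the median difference was -1.96. The chains of type V, which starts fibrils and limits their diameter, had the largest differences. Col5a2 had a value of 8.10 in B-Gal positive cells and 12.36 in B-Gal negative cells, 19.1-fold lower. Col5a1 had 7.64 in B-Gal positive and 11.47 in B-Gal negative cells, 14.2-fold lower. Col5a3, an alternative chain of the same type, had 7.28 in B-Gal positive and 10.90 in B-Gal negative cells, 12.3-fold lower. The chains of types I and III, the bulk collagens of dermis and scar, differed less. Col1a1 had 12.00 in B-Gal positive and 13.96 in B-Gal negative cells, 3.88-fold lower. Col1a2 had 12.04 in B-Gal positive and 13.94 in B-Gal negative cells, 3.76-fold lower. Col3a1 had 11.78 in B-Gal positive and 13.82 in B-Gal negative cells, 4.12-fold lower. The type I and III chains thus had values far above the floor in the B-Gal positive array. In B-Gal negative cells they lay near the top of the scale, where the highest value of any probe set was 14.23, against a highest value of 14.83 in B-Gal positive cells.

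The remaining fibrillar chains include those best known from cartilage. Col24a1, a minor fibrillar chain, had 6.02 in B-Gal positive and 8.04 in B-Gal negative cells, 4.06-fold lower. Col11a1, a chain of the cartilage collagen type XI that is also made in other connective tissue, had 6.11 in B-Gal positive and 7.72 in B-Gal negative cells, 3.04-fold lower. Its partner chain Col11a2 had 7.00 in B-Gal positive cells and 7.05 in B-Gal negative cells, a difference of -0.05 that turned to 0.06 under quantile normalization. Col27a1 (-0.94) and the type II gene Col2a1 (-0.87), the main collagen of cartilage, lay just under the 2-fold threshold. The cartilage markers Acan, Comp and Matn3 were under the floor in both arrays, and Sox9, also a gene of hair follicles, differed by -1.30. Their part in these differences was not tested.

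Type VI collagen had the lowest class median, -3.77 over its 5 expressed chains. All 5 were at least 2-fold lower in B-Gal positive cells, against 12.7% of all expressed genes. The core trimer of type VI is built from the products of Col6a1, Col6a2 and Col6a3. Col6a3 had 8.64 in B-Gal positive and 12.70 in B-Gal negative cells, 16.7-fold lower. Col6a1 had 8.44 in B-Gal positive and 12.43 in B-Gal negative cells, 15.9-fold lower. Col6a2 had 8.13 in B-Gal positive and 11.90 in B-Gal negative cells, 13.6-fold lower. The core chains therefore differed to a similar degree, within 0.29 of each other on the log2 scale. Col6a5 and Col6a6 encode chains that resemble Col6a3, and their differences were smaller, 3.34-fold and 2.38-fold lower by the probe sets used. Each has a further probe set, which gave -2.97 for Col6a5 and -2.22 for Col6a6 on the log2 scale, against -1.74 and -1.25 by the ones used. In the further Col6a5 probe set, the B-Gal positive value of 5.47 was under the floor. Col6a4, also resembling Col6a3, was under the floor in both arrays.

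**Figure D2:**
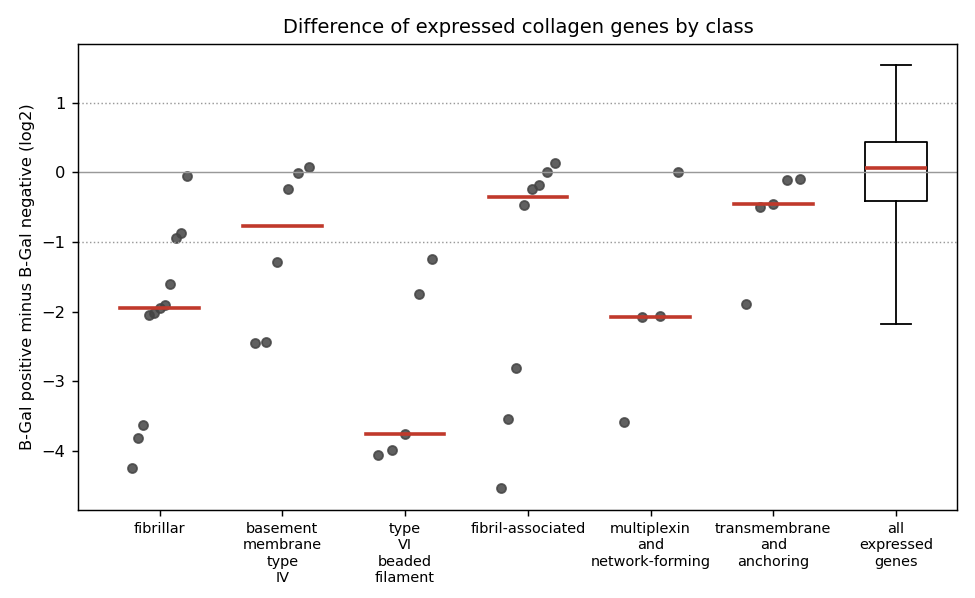
Difference (B-Gal positive minus B-Gal negative, log2) of each expressed collagen gene, by class, with red bars at class medians. The box at the right holds the middle 50% of all expressed genes, its whiskers run from the 5th to the 95th percentile, and dotted lines mark 2-fold. Type VI lies lowest with a median of -3.77, and the fibril-associated class separates into 3 chains at -4.54 to -2.81 and 5 at -0.46 to 0.13.

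Fibril-associated collagens fell into separate ranges. Col12a1, which coats type I fibrils in tissue under tension, had 7.67 in B-Gal positive and 12.22 in B-Gal negative cells. It was 23.3-fold lower, the collagen with the lowest difference and number 8 from the bottom among all expressed genes. Col14a1, a related coat chain, had 8.50 in B-Gal positive and 12.05 in B-Gal negative cells, 11.7-fold lower. Col16a1 had 7.10 in B-Gal positive and 9.91 in B-Gal negative cells, 7.03-fold lower. The other 5 expressed members, Col9a1, Col9a2, Col9a3, Col20a1 and Col22a1, differed by -0.46 to 0.13. The type IX chains of this group coat type II fibrils in cartilage. Col19a1 was under the floor in both arrays. Because of this division the class median (-0.35) and mean (-1.46) were far apart.

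Among basement membrane chains, Col4a1 and Col4a2, which form the network found in nearly all basement membranes, were lower by nearly equal amounts. Col4a1 had 7.14 in B-Gal positive and 9.58 in B-Gal negative cells, 5.44-fold lower. Col4a2 had 7.11 in B-Gal positive and 9.56 in B-Gal negative cells, 5.47-fold lower, so that the pair whose head-to-head promoters are printed above differed from each other by 0.01 on the log2 scale. Col4a5 had 5.99 in B-Gal positive and 7.28 in B-Gal negative cells, 2.44-fold lower. Its neighbour on chromosome X, Col4a6, had 5.65 in B-Gal positive and 5.58 in B-Gal negative cells, values at the floor, and Col4a3 and Col4a4, chains of kidney and other specialised membranes, differed by -0.01 and -0.24. The sign for Col4a3 and Col4a6 was not the same under every scaling. All 5 endothelial markers were at least 2-fold lower, against 12.7% of all expressed genes. Their median value was 6.59 in B-Gal positive and 8.37 in B-Gal negative cells. Of 5 pericyte and smooth muscle markers, 4 were lower by that much (median 6.89 in B-Gal positive and 10.89 in B-Gal negative cells). The exception was Cspg4 (-0.70). The part of these cell types in the type IV differences was not tested.

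The multiplexins, whose cleavage products include endostatin, were lower by similar amounts. Col18a1 had 7.10 in B-Gal positive and 9.19 in B-Gal negative cells, 4.24-fold lower. Col15a1 had 7.12 in B-Gal positive and 9.19 in B-Gal negative cells, 4.18-fold lower. The short-chain collagens differed from each other. Col8a1, a chain of the type VIII network of vessel walls, had 6.13 in B-Gal positive and 9.71 in B-Gal negative cells, 12.0-fold lower. Col8a2, its partner, had 6.31, an identical deposited value, in both arrays. Col10a1, a chain of growth plate cartilage, was under the floor in both.

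Col7a1, the chain of the anchoring fibrils that tie the epidermal basement membrane to the dermis, had 7.00 in B-Gal positive and 8.88 in B-Gal negative cells, 3.70-fold lower. The 4 transmembrane genes differed by less than 2-fold. Col17a1, a hemidesmosome component of basal keratinocytes, had 6.19 in B-Gal positive cells and 6.28 in B-Gal negative cells. Col13a1, Col23a1 and Col25a1 differed by -0.12, -0.45 and -0.50. Of 4 expressed keratinocyte markers, Krt5 and Krt14 were at least 2-fold lower, against 12.7% of all expressed genes. Krt5 was above the floor in B-Gal negative cells alone, so it could count only as lower. Krt10 and Trp63 differed by -0.24 and -0.21. The list's median values were 5.89 in B-Gal positive and 6.68 in B-Gal negative cells. The part of keratinocyte RNA in the Col7a1 difference was not tested. Col26a1 differed by 0.19 and Col28a1 by -0.88, with its B-Gal positive value at the floor.

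**Figure D3:**
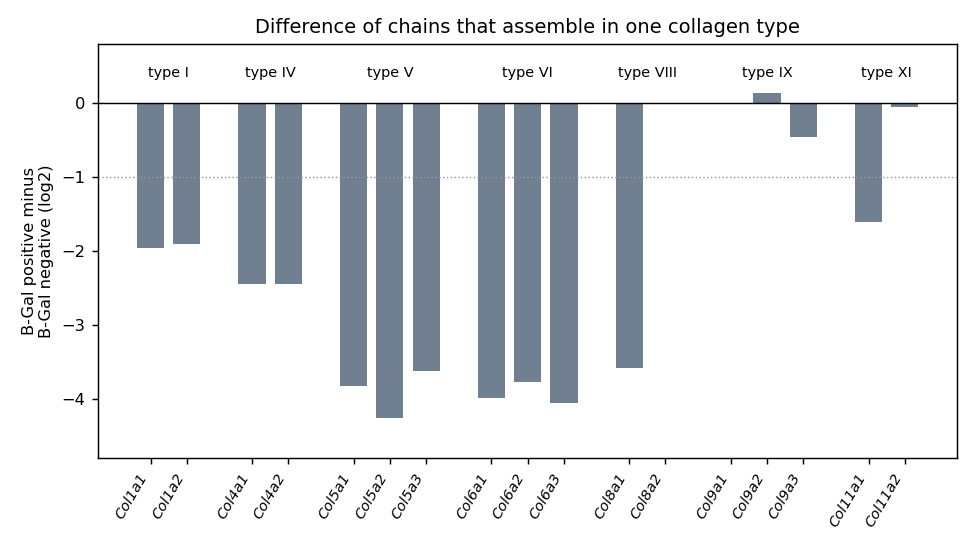
Difference (B-Gal positive minus B-Gal negative, log2) of chains that assemble within one collagen type, with the 2-fold line dotted. The plotted chains of types I, IV (Col4a1 and Col4a2), V and VI (Col6a1 to Col6a3) have similar differences within each type, whereas Col8a1 (-3.58) and Col11a1 (-1.61) stand below Col8a2 (0.00) and Col11a2 (-0.05). Col9a1 is also at 0.00.

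Chains of one trimer and neighbours on a chromosome were set side by side. The gap between Col1a1 and Col1a2, which lie on different chromosomes, was 0.05 on the log2 scale, and that between Col5a1 and Col5a2 was 0.43. The gap was 1.56 between Col11a1 and Col11a2 and 3.58 between Col8a1 and Col8a2. That last gap rests on the identical deposited values of Col8a2, whose origin was not tested. Collagen genes next to each other in the annotation's order of protein-coding genes made up 8 pairs. Col19a1, paired with Col9a1, and Col6a4, paired with Col6a5, were under the floor in both arrays. Of the pairs, Col6a1 and Col6a2 differed from each other by 0.22, and Col4a3 and Col4a4 by 0.23. The values of Col4a3 and Col4a4 were 5.68 to 6.18, near the floor at 5.59. Col3a1 and Col5a2, neighbours on chromosome 1, had differences of -2.04 and -4.26, a gap of 2.21. Col4a5 and Col4a6 lay 1.36 apart, with Col4a6 at the floor in both arrays. Adjacent position thus went with a similar difference in some pairs and not in others.

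Across classes, the share of collagens past 2-fold went with the value in the B-Gal negative array, although that value enters both quantities. Of the 23 expressed collagens at 8 or more there, 21 were at least 2-fold lower in B-Gal positive cells, against 19.9% of all expressed genes at that value. Of the 18 collagens under 8, 2 were, against 8.45% of expressed genes in that range. The 2 exceptions at 8 or more were Col2a1 and Col27a1, and the 2 lower genes under 8 were Col11a1 and Col4a5. The size of the difference did not follow that value throughout. Col1a1, Col1a2 and Col3a1 had the highest B-Gal negative values of the collagens (13.96, 13.94 and 13.82) and differed by -1.96, -1.91 and -2.04. These values lie near the top of the scale, where the highest of any B-Gal negative probe set was 14.23. The part of that limit in their differences was not tested. Col12a1, at 12.22 in B-Gal negative cells, differed by -4.54.

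Collagen chains need many helpers to become fibrils. Of 38 expressed synthesis and maturation genes, 31 were at least 2-fold lower in B-Gal positive cells, against 12.7% of all expressed genes, and 1 was higher, against 9.92%. Of the 31, P4ha3, Tll1, Pcolce2, Loxl4 and Fmod were above the floor in B-Gal negative cells alone, so they could enter the count only as lower genes. The list's median was -2.72, or -2.63 when values below the floor are set to it. Plod2, a lysyl hydroxylase that prepares collagen for cross-linking, was 26.5-fold lower, with 5.89 in B-Gal positive and 10.62 in B-Gal negative cells. Lox, which oxidises lysine for the cross-links themselves, had 7.31 in B-Gal positive and 11.80 in B-Gal negative cells, 22.4-fold lower. Fkbp14, a prolyl isomerase of the endoplasmic reticulum, was 18.4-fold lower, and Lum, a proteoglycan of the fibril surface, 18.1-fold lower. Bmp1, which removes the C-propeptide, was 17.3-fold lower, and Pcolce, its enhancer, 17.2-fold lower. Serpinh1, the collagen chaperone HSP47, had 6.93 in B-Gal positive and 10.83 in B-Gal negative cells, 14.9-fold lower. The single higher gene was Tmem38b, an ion channel of the endoplasmic reticulum, at 2.07-fold. It was chosen after its value was seen, as were the next examples: P4hb (-0.86), Plod1 (-0.83), Plod3 (-0.78) and Colgalt1 (-0.50) differed by less than 2-fold, and so did the fibronectin gene Fn1 (-0.07).

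Collagen receptors and degradation genes went both ways. In B-Gal positive cells, 10 of the 19 expressed genes were lower by 2-fold or more, against 12.7% of all expressed genes. On deposited values 4 were higher by as much, against 9.92%, and 3 when values below the floor are set to it. The median was -1.14. Mrc2, an endocytic collagen receptor of mesenchymal cells, had 6.48 in B-Gal positive and 10.66 in B-Gal negative cells, 18.2-fold lower. Its relative Mrc1, the macrophage mannose receptor, which also takes up collagen, had 12.52 in B-Gal positive and 6.92 in B-Gal negative cells, 48.5-fold higher. Lair1, an inhibitory collagen receptor of leukocytes, had 9.76 in B-Gal positive and 6.10 in B-Gal negative cells, 12.7-fold higher. Ddr2, a kinase receptor for fibrillar collagen, was 13.7-fold lower, the gelatinase gene Mmp2 13.2-fold lower and the fibroblast protease gene Fap 9.43-fold lower. Pepd, a dipeptidase of collagen breakdown, was 2.31-fold higher. The collagenase gene Mmp8, the one that drops out of the higher count, lay below the floor in B-Gal negative cells and is shown to be at least 1.56-fold higher. Another collagenase gene, Mmp13, had 8.73 in B-Gal positive and 10.95 in B-Gal negative cells, 4.65-fold lower. Pepd, Mmp8 and Mmp13 were named after their values were seen. Of the 9 degradation genes, 5 were at least 2-fold lower, against 12.7% of all expressed genes. On deposited values 2 were higher, against 9.92%. Mrc1 is also 1 of the 6 macrophage markers, all of which were at least 2-fold higher. Their median value was 12.27 in B-Gal positive and 7.17 in B-Gal negative cells, and Cd163 among them could count only as higher. The part of macrophage RNA in these receptor differences was not tested.

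**Figure D4:**
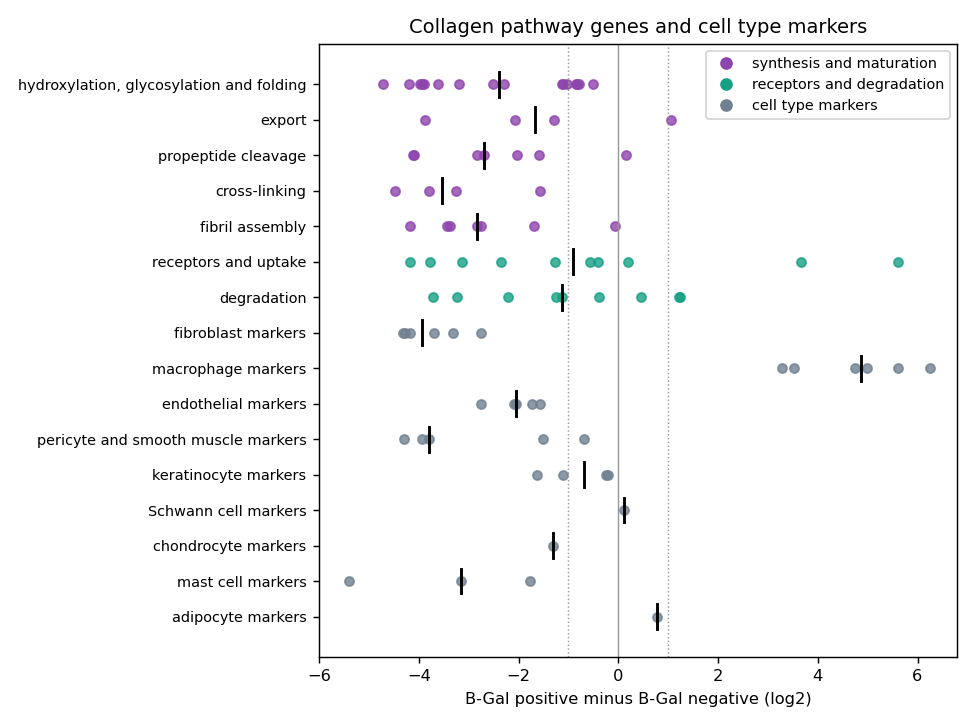
Differences (B-Gal positive minus B-Gal negative, log2) of expressed genes of the collagen pathway by role and of cell type markers, 1 point per gene, with black bars at medians and dotted lines at 2-fold. Synthesis roles lie left of 0 for 36 of 38 genes, against 6275 of all 13784 expressed genes. Receptors and degradation genes spread to both sides, and macrophage markers lie right at 3.29 to 6.24.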

How the data were processed

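The deposited table holds log2 expression values, 1 per probe set and array, made by the authors with Partek per the submitters' processing notes, which give no version or role. No source used here gives the log base or how values were summarized, background-corrected and normalized. The log2 scale was read from the values (1.16 to 14.83), and every fold rests on it. Array medians were 6.16 for B-Gal positive and 6.18 for B-Gal negative. No further scaling was applied.

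Probe sets naming 1 gene in the array annotation were used, and for a gene with several the one with the highest mean of both arrays. Symbols were updated by gene ID from a RefSeq table (GRCm38.p6). Folds with 1 array under the floor were computed against the floor. All collagens may be named. From each pathway list the 6 genes with the largest absolute difference were taken, plus Serpinh1, Lox and Bmp1. Of the synthesis list, Fkbp10, Adamts2 and Loxl2 had no probe set of their own. The members and lists were chosen with earlier results of these data known. No p-value was computed. The counting step was tested on simulated data. Python 3.11.15, numpy 2.4.6, pandas 2.3.3 and statsmodels 0.14.6 were used. Alternatives were centred medians, loess (span 0.4, 3 iterations), quantile normalization, an offset of 32, other filters and thresholds, probe set means and class means.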

Additional observations from a re-analysis of the deposited data

How the results depend on the processing

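No paired analysis was possible because each group has 1 array. Of 93 recomputed values of 10 results, 87 stayed within 1.5 times the count reported or, for medians, within 0.37, the standard deviation of the receptor genes' differences, and 0 changed sign. The number of collagens at least 2-fold lower in B-Gal positive cells was 23 and ranged from 16 with a 4-fold threshold to 26 with a 1.5-fold one. All 23 were lower under centring, loess, quantile normalization and the offset, and 22 stayed past 2-fold with the offset. The count of higher collagens was 0 in every setting run. The type VI median (-3.77) was -2.80 under loess, -2.77 under quantile normalization and -2.75 with no filter, settings in which Col6a4 also entered, and the type VI mean was -2.96. The type IV median (-0.76) was -2.44 with a higher floor, the 99th percentile of receptor values, which left 3 chains. The fibril-associated mean was -1.46 in place of a median of -0.35. The median difference of all genes was 0.12 as deposited, 0.14 after centring, -0.02 after loess and 0.04 after quantile normalization. The sign of Col11a2, Col4a3 and Col4a6 turned under at least 1 of these scalings.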

Other observations

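Col9a1 and Col8a2 carry exactly the same deposited value in both arrays, 6.57 for Col9a1 and 6.31 for Col8a2. Such identical pairs occur for 614 of the 28853 probe sets (2.13%), and how they arose was not tested.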
